A study of Homo sapiens with 12 samples.

Results

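The genes described here encode the epidermal growth factor (EGF) receptor family and its ligands. They were taken by name as 3 receptors (EGFR, ERBB2 and ERBB3) and 6 ligands (NRG1, HBEGF, AREG, EREG, TGFA and BTC), 9 of the 28100 genes in the counts. RNA of the established human melanoma cell line MV3 was sequenced after 24 h with extracellular vesicles (EVs), small membrane particles that cells release. The groups were M1 EV, M0 EV and M2 EV, which received 1e10 particles per well from THP-1 macrophages polarized to an M1, M0 or M2 state for 48 h, and Ctrl, which received PBS. Each group had 3 libraries. All groups were of the same cell line and had been moved to medium with 1% EV-depleted serum 3 h before treatment, and the vesicle donor, THP-1, is a human monocytic leukaemia line. The polarizing agents are not named in the labels. Nothing says that replicates were separate cultures or vesicle preparations, so p-values measure only how these libraries vary, which may be technical.

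Receptors of this family are tyrosine kinases that pair when a ligand binds and then signal through the RAS-ERK and PI3K-AKT pathways. ERBB2 has no known ligand of its own and serves as a partner for the others, and ERBB3 has little kinase activity and depends on its partner. The ligands are made as membrane-anchored precursors and are released by ADAM proteases. AREG, EREG, TGFA, HBEGF and BTC bind EGFR, HBEGF, EREG and BTC can also bind ERBB4, and neuregulin 1 (NRG1) binds ERBB3 and ERBB4.

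Library totals, summed over the transcript that stands for each gene, ranged from 9699560 to 14384676 counts, and 16896 to 17401 genes had a count. Levels are given in CPM (counts scaled to a common library size). Of 10 melanocyte lineage markers checked against the labelled melanoma type, 2 (TYR and S100B) had no count and only 2 had enough counts to be tested. These were PAX3, at 19.6, 16.9, 17 and 16.7 CPM in M1 EV, M0 EV, M2 EV and Ctrl cells (M1 EV over Ctrl called higher, adjusted p = 0.0325, edgeR), and MLANA, at 1.09, 1.3, 0.907 and 0.802 CPM (not called). SOX10 had 4 counts in all, in M2 EV cells. Of 10 markers of the undifferentiated melanoma state 9 were tested, among them VIM at 5170, 5110, 5040 and 5060 CPM in the same order of groups, and NGFR was too low to be tested, with 4 to 7 counts per group. Replicates were tight, with a biological coefficient of variation of 2.59% over the genes tested. M0 EV replicates 2 and 3 were close to sampling noise (chi-square per degree of freedom 1.02, p = 0.051, over genes with at least 10 counts; 1.07, p = 6.15e-08, at 100 counts), against 1.21 or more for every other replicate pair. That they are a single library deposited again was not settled; they were counted as separate, and summing them left 5 members called in M1 EV against M0 EV and 0 in M0 EV against Ctrl.

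In M1 EV cells, 3 ligands were higher than in Ctrl cells (EREG, NRG1 and HBEGF), and 2 receptors were lower (ERBB2 and, at a trace level, ERBB3). In M0 EV and M2 EV cells none of the tested members was called against Ctrl. Genes were tested with edgeR's quasi-likelihood test over all 13132 genes with enough counts and called at a Benjamini-Hochberg adjusted p below 0.05. Of these genes, 14.7% were called higher and 13.5% lower in M1 EV cells (28.1% in all). TGFA and BTC were too low to be tested, so the calls concern 7 members. ERBB3 passed the low-count filter only through libraries of the other groups, so its call is given as a value and supports nothing further.

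**Figure D1:**
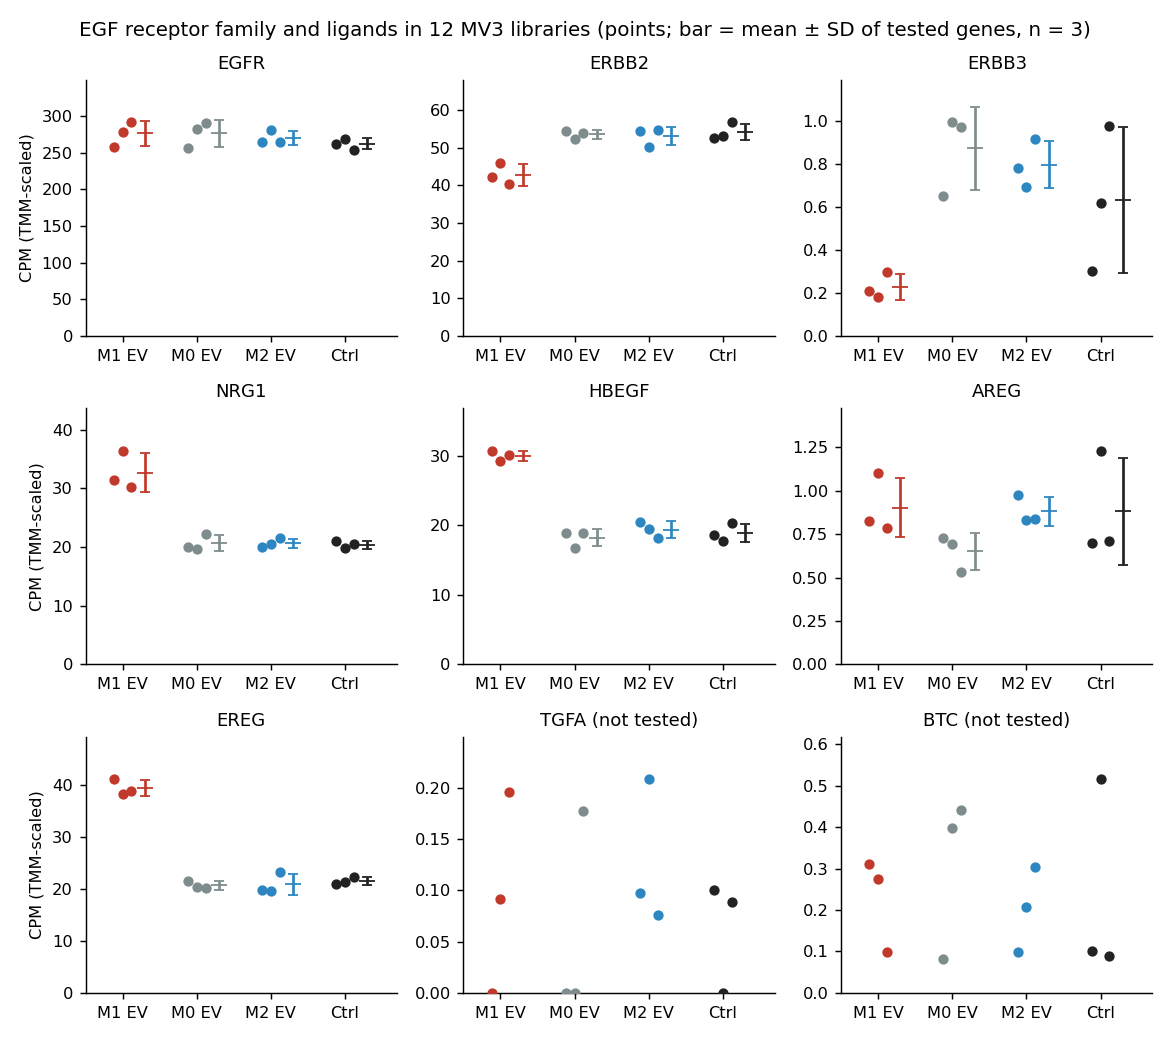
Level of each member in each of the 12 libraries in CPM, with 1 panel per gene and groups in the order M1 EV, M0 EV, M2 EV and Ctrl; points are libraries and bars are the mean and SD of tested genes. The M1 EV points stand above every other library for EREG, NRG1 and HBEGF and below every other library for ERBB2, while the EGFR points overlap across groups.

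EREG encodes epiregulin, a ligand of EGFR and ERBB4. It was at 41.1, 38.2 and 38.9 CPM in M1 EV cells, 21.6, 20.3 and 20.1 CPM in M0 EV cells, 19.9, 19.6 and 23.2 CPM in M2 EV cells, and 21, 21.4 and 22.4 CPM in Ctrl cells. All M1 EV libraries lay above all other libraries, which overlapped with each other. EREG was 1.82-fold higher in M1 EV than in Ctrl cells, a log2 fold change of 0.86 ± 0.068 (SE; 95% interval 0.73 to 1; adjusted p = 3.4e-13, edgeR). This was the largest log2 fold change among the members called higher.

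HBEGF encodes heparin-binding EGF-like growth factor, whose precursor is also the diphtheria toxin receptor. It was at 30.7, 29.3 and 30.1 CPM in M1 EV cells, 18.9, 16.8 and 18.9 CPM in M0 EV cells, 20.5, 19.5 and 18.2 CPM in M2 EV cells, and 18.6, 17.8 and 20.3 CPM in Ctrl cells. The M1 EV libraries were again apart from the other 9. The log2 fold change of M1 EV over Ctrl was 0.66 ± 0.072 (SE; 95% interval 0.52 to 0.81), or 1.58-fold, with an adjusted p of 1.96e-09 (edgeR).

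NRG1 encodes neuregulin 1, a ligand of ERBB3 and ERBB4 with many isoforms. It was at 31.5, 36.4 and 30.2 CPM in M1 EV cells, 20.1, 19.6 and 22.2 CPM in M0 EV cells, 20, 20.6 and 21.5 CPM in M2 EV cells, and 21.1, 19.8 and 20.5 CPM in Ctrl cells. No M1 EV library overlapped with the other groups, although M1 EV replicate 2 was higher than its group's other libraries. The log2 fold change of M1 EV over Ctrl was 0.68 ± 0.074 (SE; 95% interval 0.53 to 0.83), or 1.6-fold, with an adjusted p of 1.54e-09 (edgeR).

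The remaining EGFR ligands were rare. AREG, which encodes amphiregulin, had 8, 12 and 8 counts in M1 EV cells, 9, 7 and 6 in M0 EV cells, 10, 12 and 11 in M2 EV cells, and 7, 12 and 8 in Ctrl cells. The M1 EV and Ctrl libraries overlapped, and the log2 fold change of M1 EV over Ctrl was 0.06 ± 0.33 (SE), with an adjusted p of 0.931 (edgeR). The M0 EV libraries lay below the M1 EV libraries, but M1 EV against M0 EV was not called (0.47 ± 0.35 SE, adjusted p = 0.432, edgeR). Against Ctrl, the 95% interval for M1 EV ran from -0.61 to 0.73, so a change of the size seen for HBEGF lies within it. TGFA, which encodes transforming growth factor alpha, had 0, 1 and 2 counts in M1 EV cells, 0, 0 and 2 in M0 EV cells, 1, 3 and 1 in M2 EV cells, and 1, 0 and 1 in Ctrl cells. BTC, which encodes betacellulin, had 3, 3 and 1 counts in M1 EV cells, 1, 4 and 5 in M0 EV cells, 1, 3 and 4 in M2 EV cells, and 1, 5 and 1 in Ctrl cells. A difference in TGFA or BTC was not detectable at this depth.

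The main receptor, EGFR, was the most abundant member and differed little between groups. It was at 257, 278 and 291 CPM in M1 EV cells, 256, 282 and 290 CPM in M0 EV cells, 265, 281 and 265 CPM in M2 EV cells, and 262, 269 and 254 CPM in Ctrl cells. The log2 fold change of M1 EV over Ctrl was 0.08 ± 0.043 (SE; adjusted p = 0.194, edgeR), and its 95% interval, -0.01 to 0.16, holds no change of the size seen for HBEGF. Without M1 EV replicate 1 the value was 0.12 and passed the threshold (adjusted p = 0.0403, edgeR). EGFR-AS1, a transcript of the opposite strand at the same locus, was not called either (log2 fold change 0.28, adjusted p = 0.198, edgeR).

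ERBB2, the partner receptor, was lower in M1 EV cells. It was at 42.1, 45.9 and 40.4 CPM in M1 EV cells, 54.5, 52.3 and 53.8 CPM in M0 EV cells, 54.3, 50.3 and 54.7 CPM in M2 EV cells, and 52.6, 53.2 and 56.7 CPM in Ctrl cells. The M1 EV libraries lay below all others. The log2 fold change of M1 EV over Ctrl was -0.34 ± 0.057 (SE; 95% interval -0.45 to -0.22), a ratio of 0.79, with an adjusted p of 1.05e-05 (edgeR). The labels do not say whether counting used the strand, and MIEN1 and PGAP3 overlap ERBB2 on the opposite strand. Neither was called in M1 EV against Ctrl (MIEN1 log2 fold change -0.06, adjusted p = 0.558; PGAP3 log2 fold change -0.19, adjusted p = 0.341; edgeR). In M1 EV against M0 EV, PGAP3 was called lower (-0.34, adjusted p = 0.0499, edgeR), and its part in the ERBB2 counts was not tested.

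ERBB3, the neuregulin receptor, was at the edge of detection. It had 2, 2 and 3 counts in M1 EV cells, 8, 10 and 11 in M0 EV cells, 8, 10 and 12 in M2 EV cells, and 3, 6 and 11 in Ctrl cells. The M1 EV libraries had the lowest CPM values, 0.183 to 0.295, but the Ctrl libraries spread widely, with the lowest at 0.3 CPM. The log2 fold change of M1 EV over Ctrl was -1.46 ± 0.51 (SE; 95% interval -2.5 to -0.42; adjusted p = 0.0417, edgeR). The call was lost without Ctrl replicate 2 (adjusted p = 0.0644), without M1 EV replicate 1 (0.0985), without M1 EV replicate 3 (0.0527) and with no low-count filter (0.061), all with edgeR. DESeq2 gave no adjusted p. The gene was not tested without Ctrl replicate 3, without M1 EV replicate 2, with only M1 EV and Ctrl in the fit, or with a mean of at least 1 CPM required.

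Per kilobase of transcript, EGFR was the most abundant receptor and the ligands differed widely among themselves. EGFR was at 28.1, 28.1, 27.5 and 26.6 CPM per kilobase in M1 EV, M0 EV, M2 EV and Ctrl cells, and ERBB2 at 9.46, 11.8, 11.7 and 12 CPM per kilobase. HBEGF was at 12.6, 7.62, 8.12 and 7.9 CPM per kilobase in the same order of groups, and EREG at 8.53, 4.48, 4.53 and 4.67 CPM per kilobase. HBEGF thus stood above ERBB2 per length in M1 EV cells and below it in Ctrl cells, a comparison of levels that was not tested. AREG (0.716, 0.5, 0.712 and 0.711 CPM per kilobase) was far below EREG and HBEGF. ERBB3 (0.0359, 0.14, 0.13 and 0.104), BTC (0.0634, 0.104, 0.0681 and 0.0771) and TGFA (0.065, 0.036, 0.0841 and 0.0513) were the lowest, all in CPM per kilobase, and were not separable from each other at their counts. The place of NRG1 depends on the transcript taken: 18.5, 11.7, 11.7 and 11.5 CPM per kilobase with the transcript NM_013960 (1769 bases), but 5.39, 3.42, 3.46 and 3.36 CPM per kilobase with NM_013957 (5931 bases).

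**Figure D2:**
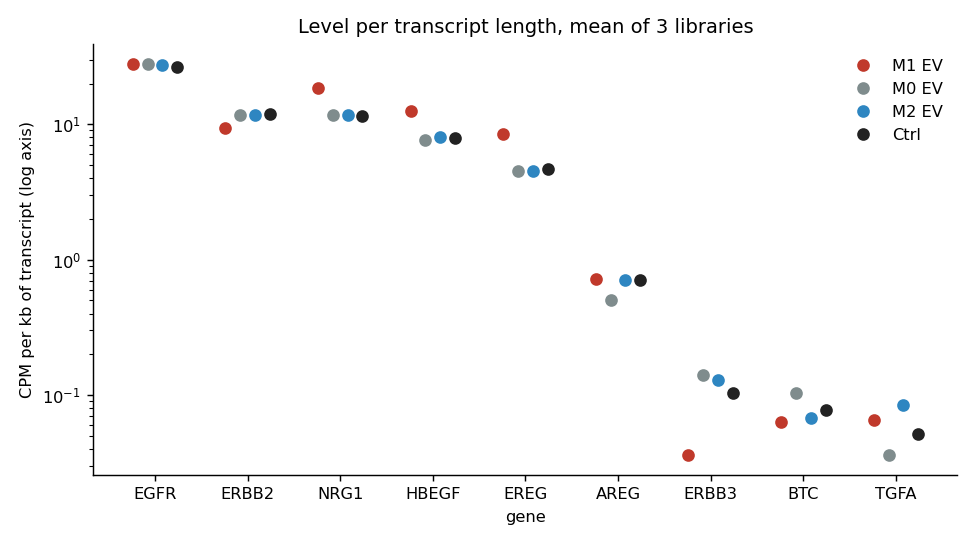
Mean level of each member per kilobase of its transcript, on a log axis in CPM per kilobase, for M1 EV, M0 EV, M2 EV and Ctrl cells. EGFR stands at 26.6 to 28.1 in the 4 groups, and ERBB3, BTC and TGFA stand below 0.15.

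Transcripts of a gene share exons, so their values overlap and are not independent. Over 43514 transcripts tested, 14.1% were called higher and 13.6% lower in M1 EV than in Ctrl cells. NRG1 had 23 tested transcripts and all 23 were called higher, with log2 fold changes from 0.58 (NM_001322207) to 0.99 (NM_013959). CPM in the transcript fit are scaled to the sum over all tested transcripts, so they are lower than the gene values given elsewhere. In M1 EV cells NM_005228 was at 86.6 CPM on this scale, and EGFR, which it stands for, at 276 CPM on the gene scale. NM_013959 was rare, at 0.744 CPM in M1 EV and 0.373 CPM in Ctrl cells on the transcript scale. Its log2 fold change had an SE of 0.25. ERBB2 had 6 tested transcripts and all 6 were called lower, between -0.38 and -0.33 on the log2 scale. None of the 9 EGFR transcripts was called (0.05 to 0.08, adjusted p 0.142 to 0.61, edgeR). The direction given for NRG1 and ERBB2 therefore did not hang on the transcript that stands for the gene.

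No member passed the test in cells given M0 or M2 vesicles. Against Ctrl, 0.0152% of all tested genes were called in M0 EV cells and 0.0457% in M2 EV cells, and no member was called in either comparison with edgeR. DESeq2 called no member either, and no member had an unadjusted edgeR p under 0.05. For the well-measured ligands the intervals of the log2 fold change of M0 EV over Ctrl were narrow. They ran from -0.22 to 0.09 for EREG, from -0.21 to 0.11 for HBEGF and from -0.15 to 0.18 for NRG1. For M2 EV over Ctrl the log2 fold changes were -0.05 for EREG, 0.03 for HBEGF, 0.02 for NRG1 and -0.03 for ERBB2. The rare members were measured less closely: AREG was at -0.41 (95% interval -1.12 to 0.3) in M0 EV and 0 (-0.64 to 0.65) in M2 EV over Ctrl. ERBB3 was at 0.41 (-0.33 to 1.15) in M0 EV and 0.3 (-0.44 to 1.03) in M2 EV over Ctrl, and TGFA and BTC were not tested. All comparisons with Ctrl share the same 3 Ctrl libraries. The direct comparison of M2 EV with M0 EV called 0 of all genes and 0 members with edgeR, where 438 genes had an unadjusted p under 0.05 and DESeq2 also called 0. Without M0 EV replicate 1 it called 37 genes, and with no low-count filter 12, with no member among them.

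**Figure D3:**
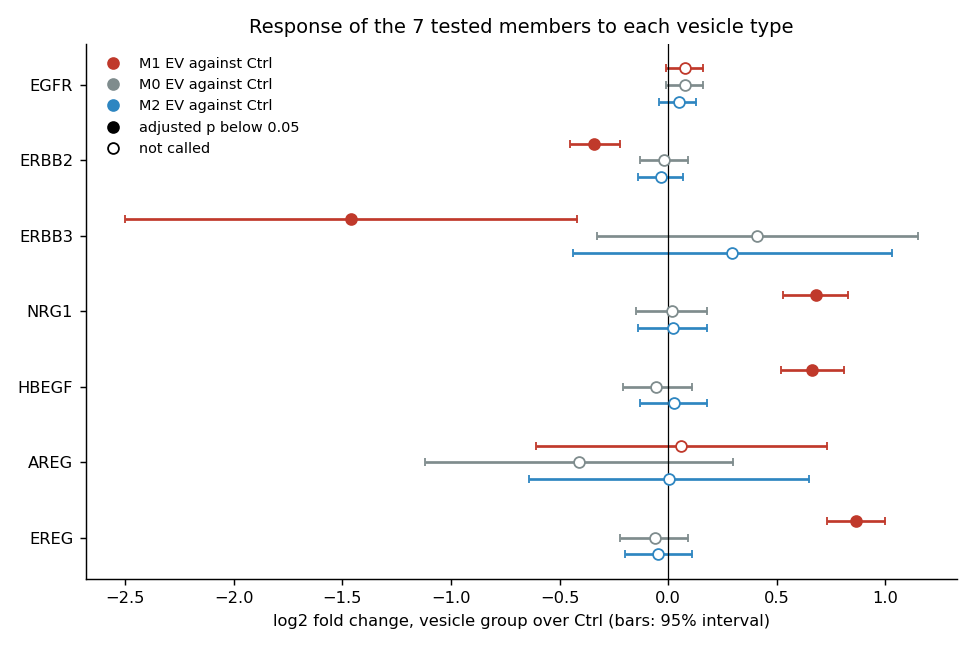
Log2 fold changes of the 7 tested members in M1 EV, M0 EV and M2 EV over Ctrl, with 95% intervals from edgeR; filled points are called. EREG, NRG1 and HBEGF stand at 0.66 to 0.86 in M1 EV and near 0 in M0 EV and M2 EV, and ERBB3 and AREG have wide intervals.

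The difference between M1 EV cells and the other vesicle groups was tested directly. M1 EV against M0 EV called 25.2% of all tested genes (13.2% higher, 12% lower), and M1 EV against M2 EV called 24.7% (12.9% higher, 11.7% lower). In each of the comparisons 3 members were called higher (EREG, NRG1 and HBEGF) and 2 lower (ERBB2 and, at a trace level, ERBB3). EREG had a log2 fold change of 0.92 ± 0.067 over M0 EV (SE; adjusted p = 3.99e-14) and 0.91 ± 0.065 over M2 EV (adjusted p = 2.96e-14, edgeR). HBEGF had 0.72 ± 0.071 over M0 EV (SE; adjusted p = 2.56e-10) and 0.63 ± 0.069 over M2 EV (adjusted p = 1.85e-09, edgeR). The values for these ligands were close to those against Ctrl, and all comparisons of M1 EV share the same 3 M1 EV libraries. NRG1 had 0.67 ± 0.072 over M0 EV (SE; adjusted p = 1.77e-09) and 0.66 ± 0.07 over M2 EV (adjusted p = 1.27e-09, edgeR). ERBB2 had -0.32 ± 0.056 over M0 EV (SE; adjusted p = 2.29e-05) and -0.31 ± 0.055 over M2 EV (adjusted p = 4.34e-05, edgeR). ERBB3 had -1.87 ± 0.47 over M0 EV (SE; adjusted p = 0.0031) and -1.76 ± 0.47 over M2 EV (adjusted p = 0.00606, edgeR). It passed the low-count filter only through libraries of the other groups, and DESeq2 gave no adjusted p in either comparison. These ERBB3 calls are given as values and support nothing further. EGFR was not called in either comparison, at 0 over M0 EV (adjusted p = 0.981) and 0.03 over M2 EV (adjusted p = 0.704, edgeR).

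EREG, AREG and BTC lie near each other on chromosome 4, together with EPGN, which encodes the EGFR ligand epigen, and beyond it a cluster of CXC chemokine genes. In GRCh38.p14 coordinates EREG spans chr4:74365145-74388749 on the plus strand, AREG spans chr4:74445136-74455005 on the plus strand and BTC spans chr4:74744759-74794523 on the minus strand. EPGN starts 56.7 kb before EREG and was also higher in M1 EV cells (2.74 ± 0.229 CPM, against 1.6 ± 0.237 CPM in Ctrl cells, SD, n = 3 libraries each; log2 fold change 0.75 ± 0.22 SE, adjusted p = 0.0135, edgeR). It was called higher over M0 EV (0.82, adjusted p = 0.00674) but not over M2 EV (0.5, adjusted p = 0.102, edgeR). AREG starts 80 kb beyond the EREG start and was not called. The difference between EREG and AREG was not tested. Further upstream, MTHFD2L had a log2 fold change of 0.37 (adjusted p = 0.0194), and CXCL2, CXCL3, CXCL5, CXCL1 and CXCL8, which encode neutrophil-attracting chemokines, had 3.37, 3.29, 3.6, 4.02 and 5.76 in M1 EV over Ctrl cells (all called, edgeR). CXCL1, CXCL2 and CXCL3 are near-identical in sequence, so counts may be shared between them. Of these, CXCL8 lies farthest from EREG.

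**Figure D4:**
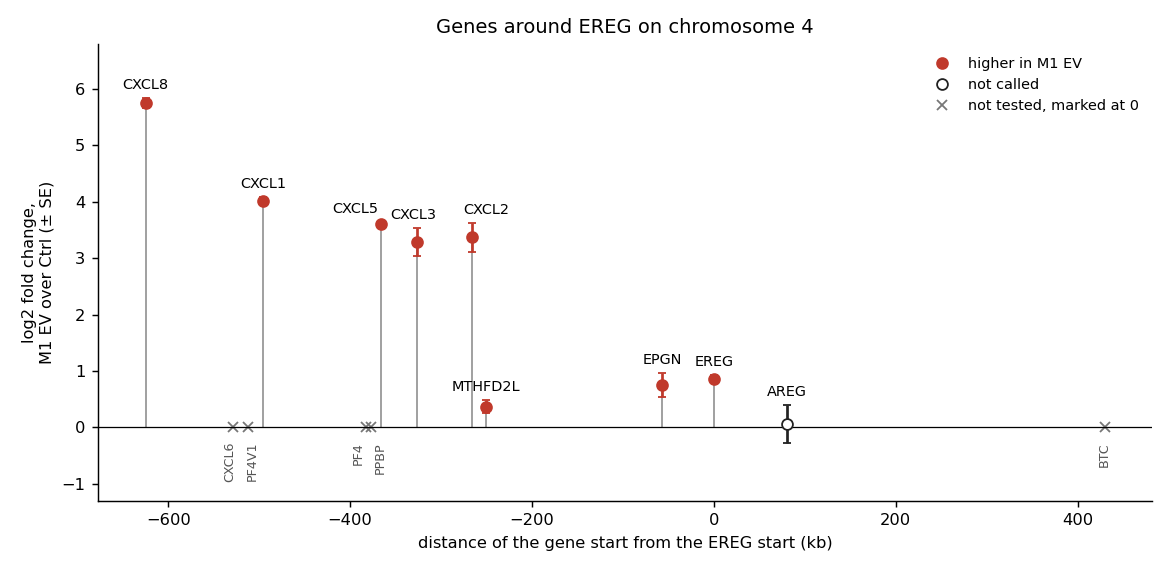
Log2 fold change of M1 EV over Ctrl (± SE) of genes around EREG, by the distance of the gene start from the EREG start in kb. EPGN and EREG stand at 0.75 and 0.86, AREG at 0.06, and the chemokine genes on the left at 3.29 to 5.76; crosses on the line mark genes that were not tested.

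The promoter windows of the called members that have an entry in the RefSeq promoter table (GRCh38.p14) are shown because EREG, HBEGF and ERBB2 were called in the same comparison, with ERBB2 opposite in direction to the ligands. Each is the 250 bases before the annotated gene start, 5′ to 3′ on the gene's strand. Windows were searched on both strands for the AP-1 motif TGANTCA, the kappaB motif of NF-kB and TATAAA. The search for TATAAA was added after the sequences were seen. Capitals mark matches. EREG is at chr4:74364895-74365144 on the plus strand, HBEGF at chr5:140346604-140346853 on the minus strand and ERBB2 at chr17:39687844-39688093 on the plus strand.
EREG: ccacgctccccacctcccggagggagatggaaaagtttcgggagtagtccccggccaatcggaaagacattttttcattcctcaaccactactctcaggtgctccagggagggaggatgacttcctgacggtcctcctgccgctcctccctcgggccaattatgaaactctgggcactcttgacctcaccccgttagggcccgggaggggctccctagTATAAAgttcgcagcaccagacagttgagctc
HBEGF: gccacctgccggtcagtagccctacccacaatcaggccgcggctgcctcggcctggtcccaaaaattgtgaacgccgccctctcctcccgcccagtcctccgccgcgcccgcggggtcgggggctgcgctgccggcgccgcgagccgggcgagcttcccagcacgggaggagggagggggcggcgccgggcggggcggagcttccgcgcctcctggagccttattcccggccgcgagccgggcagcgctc
ERBB2: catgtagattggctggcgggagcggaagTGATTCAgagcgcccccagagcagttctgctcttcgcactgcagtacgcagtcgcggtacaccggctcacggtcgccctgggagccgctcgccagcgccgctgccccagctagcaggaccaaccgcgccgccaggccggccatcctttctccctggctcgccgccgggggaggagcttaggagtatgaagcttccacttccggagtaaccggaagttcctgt
The EREG window held TATAAA, starting 32 bases before the gene start, and the AREG window held the same letters starting 29 bases before its start. Both matches were on the gene's strand. On either strand, TATAAA was in 10.7% of the 35116 promoter windows of this length. The ERBB2 window held TGATTCA starting 222 bases before the gene start, and 6.57% of all windows held the AP-1 motif. GENCODE release 29 starts ERBB2 at chr17:39687914, inside this window. The gene has 6 transcripts, and whether the one counted starts at this window was not checked. The HBEGF window held none of these motifs, and the EREG and ERBB2 windows did not hold the kappaB motif, which was in 9.96% of all windows. Among the uncalled members, the TGFA window held a kappaB match starting 219 bases before the gene start and the BTC window held matches at 90 and 23 bases. A match is a description of letters and no measurement of binding.

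The other genes of the family were mostly absent or rare. NRG2, a further neuregulin, was at 3.69 ± 0.488 CPM in M1 EV cells, 4.4 ± 0.807 CPM in M0 EV cells, 6.09 ± 0.74 CPM in M2 EV cells and 6.26 ± 0.201 CPM in Ctrl cells (SD, n = 3 libraries each). It was lower in M1 EV than in Ctrl cells (log2 fold change -0.76 ± 0.16 SE, adjusted p = 0.000282, edgeR), opposite in sign to NRG1. It was also lower than in M2 EV cells (-0.72, adjusted p = 0.000431), but was not called over M0 EV (-0.25, adjusted p = 0.317, edgeR). In M0 EV against Ctrl the NRG2 value was -0.5 ± 0.15 (SE) and was not called (adjusted p = 0.469, edgeR). ERBB4, the other neuregulin receptor, had 0 counts in M1 EV cells, 2 in M0 EV cells, 5 in M2 EV cells and 0 in Ctrl cells. A count of 0 over the 3 libraries of a group allows up to 0.0974 CPM in M1 EV cells and 0.0968 CPM in Ctrl cells, for counting error only. EGF, the founding ligand, had 5, 7, 4 and 4 counts in M1 EV, M0 EV, M2 EV and Ctrl cells. NRG3 had no count and NRG4 had 18, 25, 19 and 16 counts in the same order of groups. None of ERBB4, EGF, NRG3 and NRG4 was tested.

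Ligand shedding depends on ADAM proteases and their regulators. Of 16 listed genes 11 were tested, and 2 were higher and 4 lower in M1 EV than in Ctrl cells. That is 54.5% called, with a median log2 fold change of -0.027, against 28.1% and about 0 over all genes. ADAM17 and ADAM10, the main ligand sheddases, were not called (log2 fold changes 0.09 and 0.08, adjusted p 0.211 and 0.154, edgeR). ADAM19 was at 142 CPM in M1 EV and 102 CPM in Ctrl cells (log2 fold change 0.48 ± 0.043 SE, adjusted p = 1.29e-11, edgeR). RHBDF1, which encodes the ADAM17 cofactor iRhom1, was at 15.2 CPM in M1 EV and 21.3 CPM in Ctrl cells (-0.49 ± 0.081 SE, adjusted p = 8.06e-06, edgeR). ADAM12 fell as well (-0.37, adjusted p = 5.83e-07, edgeR). RHBDF2, which encodes iRhom2, rose (0.29, adjusted p = 0.0208, edgeR), so the iRhom genes moved in opposite directions.

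Genes acting below the receptors were called in both directions, beside 28.1% of all tested genes (14.7% higher and 13.5% lower). Of 34 adaptors and effectors, all tested, 2 were higher and 7 lower (26.5% called, median log2 fold change -0.025), a share near that of all genes. STAT3, a transcription factor, was the most firmly higher (0.26, adjusted p = 2.93e-07), followed by PTPN11, a phosphatase that feeds RAS signalling (0.18, adjusted p = 0.000249), while SOS2, a RAS exchange factor, was lower (-0.22, adjusted p = 0.00458, all edgeR). Of 28 inhibitors and turnover genes 27 were tested, with 6 higher and 5 lower (40.7% called, median 0.017). LRIG1, which encodes a membrane protein that restrains the EGFR family, was at 93.1 CPM in M1 EV and 64.5 CPM in Ctrl cells (0.53 ± 0.054 SE, adjusted p = 4.59e-10, edgeR). ERRFI1, an intracellular EGFR inhibitor, was also higher (0.19 ± 0.042 SE, adjusted p = 0.000738, edgeR). PTPRJ, a receptor phosphatase, and SOCS5, a suppressor of signalling, were lower, at -0.32 and -0.25 on the log2 scale (adjusted p 6.82e-08 and 6.51e-06, edgeR).

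Of 33 ERK output and feedback genes 31 were tested, and 10 were higher and 9 lower in M1 EV than in Ctrl cells (61.3% called, against 28.1% of all genes; median log2 fold change 0.0017). TFPI2, a protease inhibitor, was at 41.8 CPM in M1 EV and 15 CPM in Ctrl cells (1.48 ± 0.075 SE, adjusted p = 1.11e-18, edgeR). IER3, an early response gene, was at 114 CPM in M1 EV and 63 CPM in Ctrl cells (0.86 ± 0.045 SE, adjusted p = 2.74e-18, edgeR). DUSP4, an ERK phosphatase and feedback gene, was at 81.6 CPM in M1 EV and 123 CPM in Ctrl cells (-0.59 ± 0.046 SE, adjusted p = 2.99e-13, edgeR). SPRY2, another feedback inhibitor, was lower too (-0.48), while DUSP6, often read as an ERK reporter, was not called (0.05, adjusted p = 0.595, edgeR). Against Ctrl, M0 EV and M2 EV cells had 0 genes called in each of these lists, where 656 and 816 of all tested genes had an unadjusted p under 0.05 with edgeR, and DESeq2 called 0 and 1 of all genes.

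**Figure D5:**
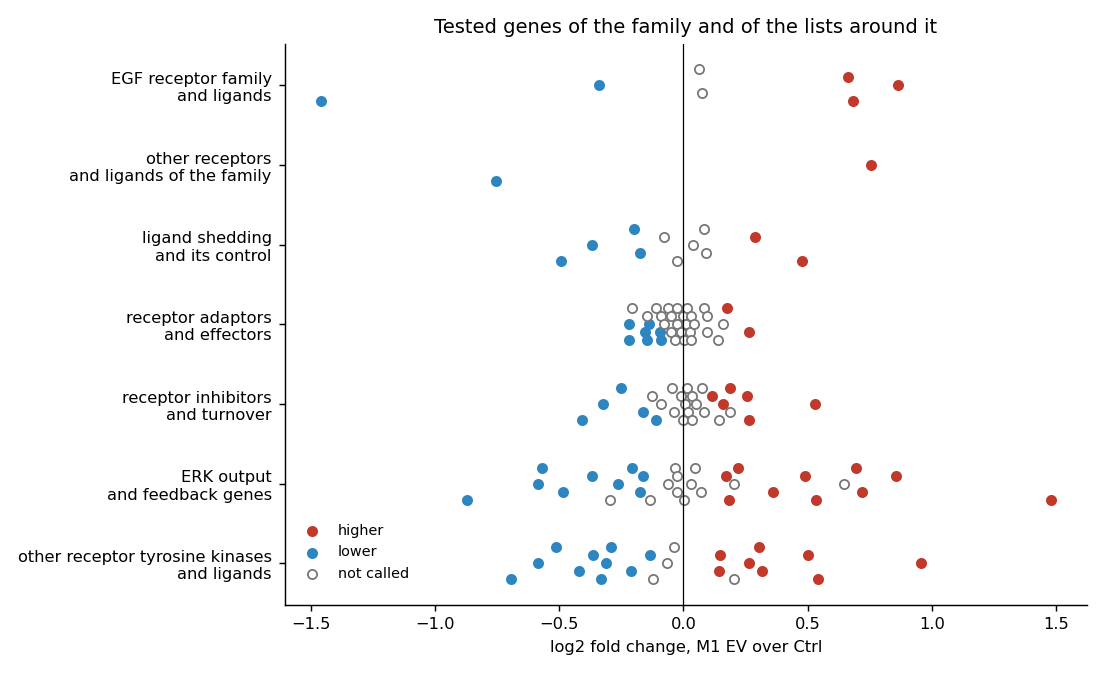
Log2 fold change of M1 EV over Ctrl for each tested gene of the pathway lists, 1 list per row, with red for genes called higher, blue for called lower and open circles for genes not called. Each row holds called genes on both sides of 0, and the medians of the lists below the first row stand between -0.095 and 0.017.

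Markers of macrophages, the source of the vesicles, were read beside these results. Of 22 markers, 7 had no count in any library (CD163, TYROBP, C1QA, C1QB, FCGR3A, CD86 and LCP1). The summed level was 72.5 to 74.7 CPM in M1 EV cells, 60.9 to 63 CPM in M0 EV cells, 62.6 to 66 CPM in M2 EV cells and 57.4 to 65.5 CPM in Ctrl cells. CD68, at 67 CPM in M1 EV and 56.7 CPM in Ctrl cells, and CTSS, which encodes cathepsin S, were higher in M1 EV than in Ctrl cells (log2 fold changes 0.24 and 1.92, adjusted p 0.000222 and 7.35e-07, edgeR). The other 20 markers together had 102, 118, 128 and 100 counts in M1 EV, M0 EV, M2 EV and Ctrl cells. The part of vesicle RNA in the member values was not tested. In bulk RNA, a change in the share of cells expressing a gene and a change in RNA per cell cannot be told apart.

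Across the 12 libraries the called members moved with genes outside the family. The likeness measure was Pearson's r of log2 CPM over 12 libraries, which share their group structure, so it is a description only. EREG was most like SERPINE2 (r = 0.992), SLC25A32 (0.992) and DRAM1 (0.99). HBEGF was most like PTX3 (0.99), DHPS (0.99) and SQSTM1 (0.987). NRG1 was most like GRWD1 (0.992), EPHB2 (0.988) and ANTXR1 (0.984), and ERBB2 was most like CARS1 (0.975), PBXIP1 (0.974) and FAM114A1 (0.973). EGFR, which did not separate the groups, was most like UBXN7 (0.938), SETD2 (0.923) and TRAK2 (0.918). Among the members, r was 0.95 for EREG with HBEGF, 0.95 for EREG with NRG1, 0.93 for NRG1 with HBEGF and -0.89 for ERBB2 with EREG.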

How the data were processed

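RNA sequencing of MV3 cells was used in 12 libraries, 3 in each of 4 groups. Per the labels' protocols, poly(A) RNA libraries were directional and strand-specific. Per the submitters' processing notes, STAR 2.6.1b, HOMER 4.10 and hg38 were used, without the role of each tool. Strand use in counting is not stated in the labels. Deposited were expected counts per RefSeq transcript, without normalization, all of them multiples of 0.5 (51.3% of non-zero values were not whole). The column name of M0 EV replicate 1 omits the 3 of MV3 and was matched by its remaining parts.

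Transcripts (70507) were named from RefSeq (69824) or GENCODE release 29 (349). The 334 unnamed ones, 0.0584% to 0.0623% of counts, were left out. A gene was represented by its transcript with the highest sum, rounded to whole counts. Tests used edgeR 4.0.16 in R 4.3.3 with TMM scaling, edgeR's default low-count filter (about 10 counts in 3 libraries), 1 term per group over all libraries, 2-sided tests and Benjamini-Hochberg adjustment over all genes tested in a comparison. CPM are TMM-scaled, with SD over 3 libraries, SE is from the model and intervals are 95%. Lengths are approximate GENCODE lengths. M0 EV replicates 2 and 3 were kept as separate libraries, and summed in an alternative chosen after seeing the data.

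The members and gene lists were chosen with earlier results of these data known. From each list, the 3 tested genes with the smallest adjusted p were named if called; ADAM10, ADAM17, RHBDF2, ERRFI1, SPRY2, DUSP6, the macrophage genes and the genes around EREG were named in addition, after their values were seen. Likeness was computed for tested members with a mean of at least 1 CPM, against all other tested genes. Names of uncharacterized loci (LOC), LINC, microRNA, small nucleolar RNA and antisense genes were left out. DESeq2 1.42.0, limma-voom (limma 3.58.1), other scalings, filters and transcripts, a replicate block and leaving out each library were alternatives. Protein sequences, and promoters of NRG1 and ERBB3, were not used here.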

Additional observations from a re-analysis of the deposited data

How the results depend on the processing

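EREG, NRG1, HBEGF and ERBB2 were called in M1 EV against Ctrl in all 16 alternatives, with log2 fold changes of 0.83 to 0.89, 0.59 to 0.73, 0.61 to 0.72 and -0.4 to -0.3. The count of members called stayed at 4 to 5 in each comparison of M1 EV and at 0 in the others. Replicate numbers did not pair the libraries (correlations of same-numbered deviations -0.053 to 0.095), and with the replicate block 5, 5 and 5 members were called in M1 EV against Ctrl, M0 EV and M2 EV, and 0 in the other comparisons. The share of all genes called in M1 EV against Ctrl was 18.4% with DESeq2 (2452 genes against 3695) and 17.1% with no low-count filter. DESeq2 called 2142 genes in M1 EV against M0 EV (edgeR 3313) and 1998 in M1 EV against M2 EV (edgeR 3242). In M0 EV against Ctrl, 2 genes were called with edgeR, 51 with no filter, 20 with the block, 86 without M0 EV replicate 1 and 0 with DESeq2. In M2 EV against Ctrl, 6 genes were called with edgeR, 62 with the compared groups alone in the fit, 33 with no filter, 26 without Ctrl replicate 2, 0 without Ctrl replicate 1 or M2 EV replicate 3, and 1 with DESeq2. Among values that were never called, leaving out libraries turned the sign of some: AREG in M1 EV against Ctrl (-0.08 to 0.36), EGFR in M1 EV against M2 EV (-0.02 to 0.07), ERBB2 in M0 EV (-0.04 to 0.02) and M2 EV (-0.06 to 0.01) against Ctrl, ERBB3 in M2 EV against Ctrl (-0.03 to 0.3), EREG in M2 EV against Ctrl (-0.13 to 0.01), HBEGF in M0 EV (-0.1 to 0.01) and M2 EV (-0.02 to 0.09) against Ctrl, and NRG1 in M0 EV (-0.04 to 0.05) and M2 EV (-0.01 to 0.04) against Ctrl; the cause was not tested. Low counts limit ERBB3, AREG, TGFA and BTC. In the comparisons of M1 EV, ERBB3 and AREG fell below the filter, and gave no value, with a mean of at least 1 CPM, with the compared groups alone in the fit and without M1 EV replicate 2. ERBB3 also gave none without Ctrl replicate 3, M0 EV replicates 1 or 3, or M2 EV replicates 2 or 3, in the comparisons of M1 EV with those groups.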

Other observations

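Of 27 other receptor tyrosine kinases and their ligands 22 were tested, and 8 were higher and 10 lower in M1 EV than in Ctrl cells (81.8% called, against 28.1% of all genes; median log2 fold change -0.095). AXL, the TAM family receptor, was at 1040 CPM in M1 EV and 1310 CPM in Ctrl cells (log2 fold change -0.33 ± 0.028 SE, adjusted p = 1.61e-12, edgeR), and its ligand GAS6 was at 307 CPM in M1 EV and 376 CPM in Ctrl cells (-0.29 ± 0.034 SE, adjusted p = 1.01e-08, edgeR). EPHB2, an ephrin receptor, was at 95.8 CPM in M1 EV and 67.7 CPM in Ctrl cells (0.5 ± 0.048 SE, adjusted p = 7.08e-11, edgeR).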
